A study of Mus musculus with 24 samples.

Results

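Chromatin was examined over the 5 genes Gata1, Gata2, Gata3, Zfpm1 and Zfpm2, which encode GATA transcription factors and the FOG cofactors that bind them. They were taken by name as members of these families, with earlier results of these data known, out of 21883 protein-coding genes with a RefSeq span on the mouse build GRCm38 (mm10). Each gene was given its span plus 100 kb on both sides, and the peaks of all 22 peak lists over these windows were merged within each assay into regions. That gave 58 of 58663 H3K4me1 regions, 193 of 197216 PU.1 regions and 95 of 79094 ATAC regions.

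The cells were lineage-negative bone marrow progenitors (HSPCs) of C57BL/6 mice. H3K4me1 ChIP-seq was done in 2 Utx KO and 2 Utx WT libraries, and PU.1 ChIP-seq in 3 Utx KO and 3 Utx WT libraries. ATAC-seq set B used Cas9 cells with a Smarca4 gRNA in Utx KO, an empty vector in Utx KO, a Smarca4 gRNA in Utx WT and an empty vector in Utx WT, with 2 libraries each. ATAC-seq set A used Utx WT Cas9 cells with a Chd4 gRNA or an empty vector, again with 2 libraries each. A growth protocol stands on the set A labels alone, with 7 days in semi-solid medium, 5 days in liquid culture and ATAC-seq 6 days after editing. It speaks of editing Brg1 in both Utx genotypes, whereas set A carries a Chd4 gRNA or an empty vector, so whether it describes set A is uncertain. The labels give 1 guide number per target, no editing efficiency and no age, and do not say how Utx was deleted or whether replicates were separate animals or cultures. The p-values below thus measure the spread between these libraries, which may be technical.

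GATA factors bind DNA through zinc fingers, and FOG proteins bind the factor rather than DNA and bring corepressors such as the NuRD complex. In blood, Gata2 is known for keeping stem and progenitor cells and Gata3 for T cells. Gata1 is known for driving red cell and platelet fates together with its cofactor FOG1 (Zfpm1), and for a part in mast cells. FOG2 (Zfpm2) is best known as the partner of GATA4 in heart and gonad. PU.1 is an ETS family factor that opposes Gata1 in progenitors. Utx, the product of Kdm6a, removes methyl groups from histone H3 lysine 27 and is part of the enzyme complexes that lay down H3K4me1, a mark of enhancers. Smarca4 (Brg1) and Chd4 are the motor subunits of the BAF and NuRD remodelling complexes.

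A region was called lost when every library of the comparison's control group had a peak there and no library of the perturbed group did. It was called gained when only the perturbed libraries had a peak, in every one of them, and kept when each library of both groups had one. Covered length is the summed length of peaks in a gene's window, and its difference is given as log2(bp + 200) from a limma fit over all genes. Where groups are said not to overlap, the share of all genes or regions for which this holds was not counted. H3K4me1 lists held 43706 to 54654 islands, PU.1 lists 137850 to 171535 and ATAC lists 24833 to 50927 peaks. ATAC lists were shorter in perturbed cells, with 35975 and 29930 peaks in Utx KO with Smarca4 gRNA, 40477 and 41024 in Utx KO with empty vector, 42015 and 46191 in Utx WT with Smarca4 gRNA, and 50845 and 50927 in Utx WT with empty vector. In set A the lists held 34429 and 24833 peaks with Chd4 gRNA, against 48687 and 41480 with empty vector. Of 8 stem and progenitor markers, 7 or 8 had a peak within 5 kb in each of the 22 libraries. So did 5 or 6 of 6 mast cell and basophil markers. In every ChIP library all 7 B cell, 5 neutrophil and 5 matched monocyte and macrophage markers had one. In ATAC libraries 4 to 6, 3 to 5 and 2 to 4 of these did. The counts in the ChIP lists thus do not tell progenitors from those cell types. Of 6 erythroid markers, 4 and 5 had an H3K4me1 peak in Utx KO, against 6 and 6 in Utx WT, while a PU.1 peak was present at 6, 6 and 6 in Utx KO, against 5, 6 and 5 in Utx WT. Near 5 megakaryocyte markers, set B with empty vector had 9 and 10 ATAC peaks in Utx KO, against 17 and 18 in Utx WT. H3K4me1 islands near them numbered 13 and 15 in Utx KO, against 14 and 15 in Utx WT. Gp9 had no ATAC peak in Utx KO, nor with Smarca4 gRNA in Utx WT, nor in set A. Near the erythroid markers, ATAC peaks with empty vector in set B numbered 10 and 8 in Utx KO, against 9 and 10 in Utx WT. Of 7 T cell markers 6 had a PU.1 peak in each Utx KO library, against 7 in each Utx WT library. The part of other cell types in the results was not tested. Kdm6a itself carried 2 to 7 peaks in every library, and a list of peaks over a gene does not test a deletion within it.

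Zfpm2 was the member at which peaks were gained after Utx loss in all 3 assays. Its span of 449.6 kb lies at chr15:40655042-41104592, and its window holds no other protein-coding gene. PU.1 peaks in the window numbered 36, 32 and 40 in Utx KO libraries, against 16, 15 and 17 in Utx WT libraries. The groups did not overlap. PU.1 islands covered 23.0, 21.6 and 22.2 kb in Utx KO, against 8.98, 10.2 and 9.98 kb in Utx WT. Covered length rose by 1.18 on the log2 scale (SE 0.10, 95% interval 0.96 to 1.39, adjusted p = 0.00285 by limma with Benjamini-Hochberg adjustment), and 286 of 20301 genes (1.41%) passed this test. The median difference of all genes was -0.01. The adjusted p was 0.0523 without Utx WT replicate 2 and 0.0501 without Utx KO replicate 3. The exact permutation p was 0.1, the smallest that 3 against 3 libraries allow.

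Of 42 PU.1 regions at Zfpm2, 12 (28.6%) were gained and 0 were lost, while over all 197216 regions 2.87% were gained and 1.16% lost. A further 12 were kept and 18 had a peak in only some libraries of a group. Among the gained regions, 9 lay within the gene and 3 in the flanks, at -48.3, -22.2 and 468.7 kb from the lower-coordinate end of the span. Strand was not given for Zfpm2, and this end served as the origin. A gained region lay over that end, at chr15:40655001-40656199, with islands of 1199, 399 and 199 bp in Utx KO and none in Utx WT. Others lay at 10.9, 106.7, 137.7, 146.3, 211.4, 294.3, 309.3 and 356.9 kb. The region 137.7 kb into the gene had islands of 1399, 599 and 1399 bp in Utx KO libraries, and that at 211.4 kb had 399 bp in each.

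Each ChIP island carries a whole number from the authors, taken here as the island's own value, whose meaning the labels do not state. Over the Zfpm2 window these values summed to 4800, 3571 and 4508 in Utx KO, against 1723, 1818 and 1519 in Utx WT. Summed over whole lists, the 2 groups overlapped. The gained islands ranked between percentiles 2.76 and 67.2 of their own lists, with values of 24 to 135. Among kept regions, that at 299.3 kb had values of 796, 653 and 746 in Utx KO, against 298, 309 and 292 in Utx WT. At 209.9 kb they were 328, 222 and 373 in Utx KO, against 45, 65 and 54 in Utx WT. At the region ranked highest at this gene in Utx WT replicate 1, in the flank at 500.3 kb, they were 550, 400 and 460 in Utx KO, against 429, 388 and 367 in Utx WT. Next in that ranking were the regions at 299.3 kb and 514.1 kb. Values of separate lists are not scaled to each other, so these are given as a description.

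**Figure D1:**
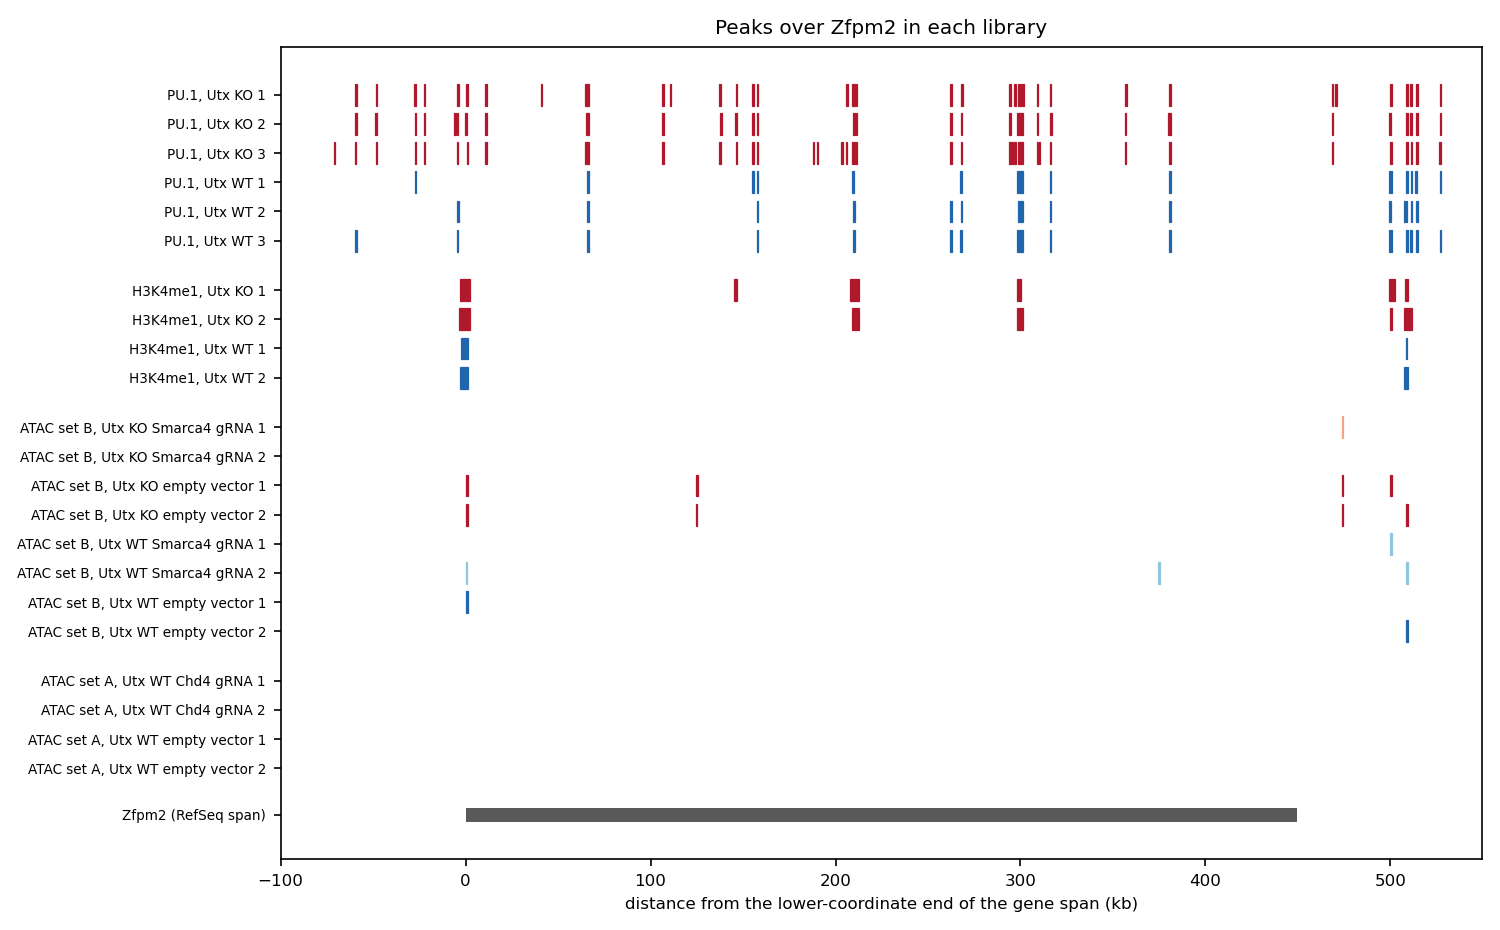
Peaks over Zfpm2 and 100 kb on each side, by distance in kb from the lower-coordinate end of the gene span, with a row per library. Dark bars are libraries without a gRNA (red Utx KO, blue Utx WT), pale bars libraries with a gRNA, and the grey bar is the gene. Bars are drawn at least 0.9 kb wide. The rows of Utx KO PU.1 libraries hold 36, 32 and 40 peaks, those of Utx WT 16, 15 and 17, and the 4 rows of set A are empty.

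H3K4me1 islands at Zfpm2 were also more numerous in Utx KO. Utx KO libraries had 6 and 5 islands, against 2 and 2 in Utx WT libraries. They covered 18.8 and 18.8 kb in Utx KO, against 4.6 and 6.60 kb in Utx WT. The log2 difference was 1.73 (SE 0.65, 95% interval 0.45 to 3.02) and did not pass the adjustment (adjusted p = 0.252 by limma), in a fit that called 219 of 19068 genes (1.15%). Scaled to the library total it was 1.98 and passed (adjusted p = 0.0081 by limma), in a fit that called 1230 of the 19068 genes, 445 higher and 785 lower. Of 6 regions 3 were gained, 0 lost and 2 kept, against 2.15% gained and 10.9% lost over all 58663 regions. The gained islands lay 210.4 and 299.9 kb into the gene and at 500.9 kb, beyond it. At 210.4 kb they spanned 4799 and 3799 bp in Utx KO, at 299.9 kb 2399 and 3199 bp, and at 500.9 kb 2999 and 1399 bp. The island over the lower-coordinate end of the span was kept, with 5399 and 5999 bp in Utx KO, against 3799 and 4399 bp in Utx WT. It and an island at 509.4 kb were the only ones listed in Utx WT.

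The regions of the assays coincided in part. All 6 H3K4me1 regions at Zfpm2 overlapped a PU.1 region, while 9 of 42 PU.1 regions (21.4%) overlapped an H3K4me1 region, against 47.2% of all PU.1 regions. Only 3 of 42 (7.14%) overlapped an ATAC region, against 25% of all. Of the gained regions, 1 of 12 PU.1 regions and 1 of 3 H3K4me1 regions overlapped each other, those near 211 kb. The other gained H3K4me1 regions lay over PU.1 regions that were kept.

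ATAC peaks at Zfpm2 were few and narrow. In set B with empty vector, Utx KO libraries had 4 and 4 peaks, against 1 and 1 in Utx WT. They covered 1320 and 1117 bp in Utx KO, against 297 and 213 bp in Utx WT. Covered length rose by 1.64 on the log2 scale (SE 0.46, adjusted p = 0.0341 by limma), where 3474 of 18511 genes (18.8%) passed and all but 79 of them were lower in Utx KO. The call was not held when any 1 of the 4 libraries was left out, with adjusted p from 0.0876 to 0.224. It also ended with lists of equal length (0.141), a 50 kb window (0.107) and no filter on low values (0.128). Across the alternatives the log2 difference ran from 0.82 to 1.94. Of 5 regions 2 were gained, at 125.0 and 474.0 kb, against 1.92% gained and 11.3% lost over all 58414 regions. The gained peaks ranked between percentiles 5.12 and 55.0 of their lists by width.

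The Smarca4 gRNA comparison in Utx KO uses the same empty vector libraries as the Utx comparison. Utx KO libraries with Smarca4 gRNA had 1 and 0 ATAC peaks at Zfpm2, against 4 and 4 with empty vector. Peaks covered 409 and 0 bp with Smarca4 gRNA, against 1320 and 1117 bp with empty vector. The log2 difference was -2.02 (SE 0.46, 95% interval -3.02 to -1.02) with an adjusted p of 0.114 by limma. Across the alternatives it ran from -2.82, without Smarca4 gRNA replicate 1, to -0.90. With so few bases covered, its size depends on the 200 bp added before taking log2. In the fit with all libraries 3 of 18511 genes (0.0162%) passed, and 3340 had an unadjusted p under 0.05. Of 5 regions 2 were lost, against 8.45% lost and 0.268% gained over all 46187 regions. The lost regions were that at 125.0 kb and that over the lower-coordinate end of the span. In Utx WT, Smarca4 gRNA libraries had 1 and 3 peaks, against 1 and 1 with empty vector, which share the Utx comparison's Utx WT libraries. They covered 535 and 717 bp with Smarca4 gRNA, against 297 and 213 bp with empty vector. That log2 difference was 0.86 (SE 0.46, adjusted p = 0.676 by limma), where 0 of 18511 genes (0%) passed and 1337 had an unadjusted p under 0.05. Set A, with Chd4 gRNA or empty vector, had 0 peaks in this window in each of its 4 libraries, and set A and set B levels are not compared.

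Zfpm1, the FOG partner of Gata1, lies at chr8:122281856-122337862 and carried the H3K4me1 region of highest value among the 5 genes in Utx WT replicate 1. The island chr8:122282401-122333999 ran through most of the gene and ranked at percentile 99.99 of the Utx WT replicate 1 list. It was kept, with 46196 and 50799 bp covered in Utx KO, against 51399 and 51399 bp in Utx WT. Its island values were 2561 and 2443 in Utx KO, against 4356 and 6970 in Utx WT, in lists whose summed values overlapped between the groups. Over the window H3K4me1 covered 97.0 and 115.8 kb in Utx KO, against 130.4 and 137.6 kb in Utx WT. The groups did not overlap, with an exact permutation p of 0.333, the smallest that 2 against 2 libraries allow. The log2 difference of -0.34 (SE 0.27, adjusted p = 0.875 by limma) did not pass, beside a median of -0.19 over all genes. Of 14 regions 2 (14.3%) were lost, beside 10.9% of all, both outside the gene, at chr8:122368201-122372799 and, within Zc3h18, at chr8:122402001-122407999.

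PU.1 peaks at Zfpm1 numbered 36, 31 and 36 in Utx KO, against 40, 39 and 38 in Utx WT. They covered 27.8, 26.2 and 32.8 kb in Utx KO, against 33.2, 33.6 and 33.2 kb in Utx WT. The lowest Utx WT value was above the highest Utx KO value in both measures, and the log2 difference of -0.21 (SE 0.10, adjusted p = 0.263 by limma) did not pass. Of 52 regions 2 (3.85%) were lost, at 63.5 and 74.1 kb from the start, beside 1.16% of all, and 1 (1.92%) was gained, at 39.7 kb within the gene, beside 2.87%. The region over the start was kept in all 6 libraries, and that ranked highest in Utx WT replicate 1 lay at 149.3 kb, within Cyba and Mvd. In ATAC the region over the start, chr8:122280640-122285483, was kept in all 12 libraries and covered 2262 and 1615 bp with Chd4 gRNA, against 3035 and 3174 bp with empty vector. Over the window the log2 difference with Chd4 gRNA was -0.66 (SE 0.35, adjusted p = 0.121 by limma), beside a median of -0.66 over all genes. Scaled to the library total that difference was 0.10. The region over the start covered 4219 and 4132 bp in Utx KO with empty vector, against 3617 and 4836 bp in Utx WT with empty vector. Lost ATAC regions numbered 2 of 22 in Utx KO with empty vector, 2 of 22 with Smarca4 gRNA in Utx WT, 1 of 18 with Smarca4 gRNA in Utx KO and 2 of 16 with Chd4 gRNA, and none was gained. Those shares, 9.09%, 9.09%, 5.56% and 12.5%, stand beside backgrounds of 11.3%, 5.97%, 8.45% and 13.7%. The 2 lost with Chd4 gRNA lay in the gene at 12.2 and 40.9 kb, and the second was open in all 8 set B libraries with 561 to 838 bp.

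**Figure D2:**
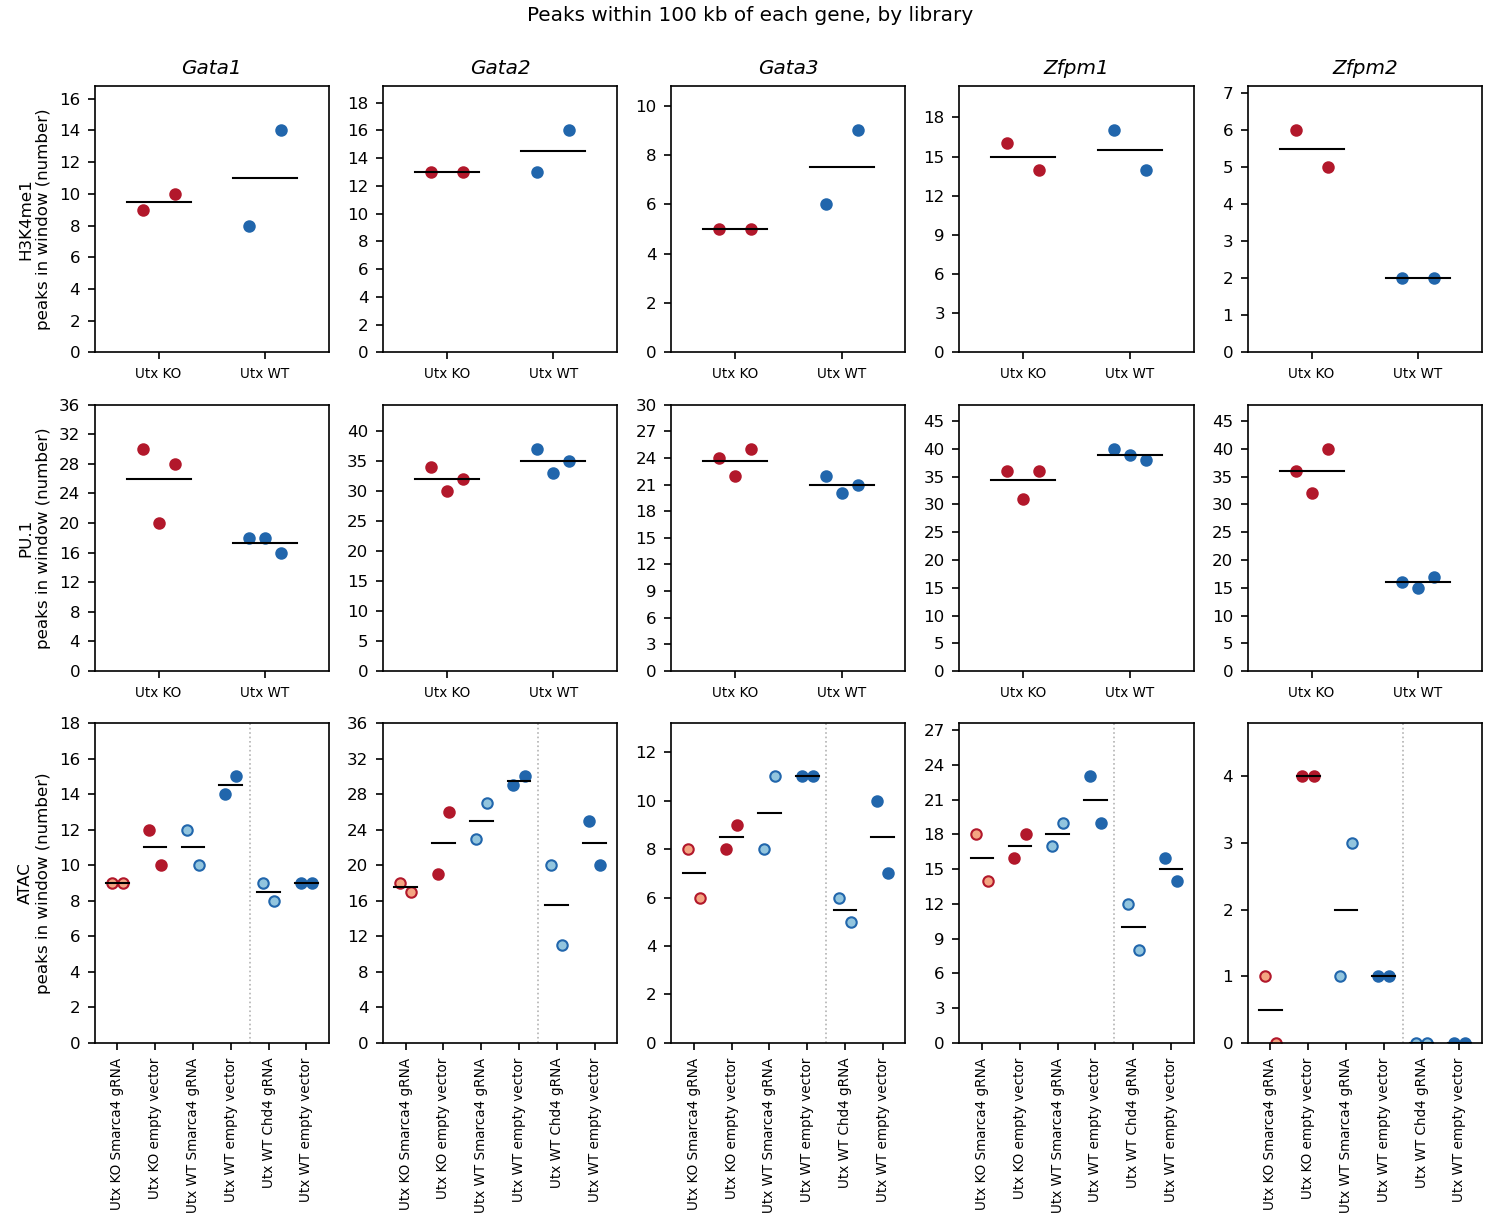
Number of peaks in the window of each gene (columns) by assay (rows), with a point per library and a line at the group mean. In ATAC panels the dotted line parts set B from set A. At Zfpm2 the Utx KO PU.1 libraries sit between 32 and 40 peaks, above the Utx WT libraries at 15 to 17, and at the other genes the groups lie closer together or overlap.

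Gata2, the GATA factor of stem and progenitor cells, lies at chr6:88193891-88207032 and had the widest ATAC region of the 5 genes in Utx WT empty vector replicate 1 of set B. RefSeq gives it 2 promoters in the table used, at transcript starts 88193891 and 88198664, and the peaks over them differed. The upstream promoter had a PU.1 peak in all 6 PU.1 libraries and the downstream promoter in 0 of 6, while both had an ATAC peak in all 12 and an H3K4me1 peak in all 4. The sequences of both are shown because of this contrast, 250 bases before to 50 after each start, on the plus strand and from RefSeq (GRCm38). Capitals mark matches, on either strand, to the motifs GATAA of GATA factors, GAGGAA of ETS factors such as PU.1 and the E-box CANNTG.
Gata2 upstream promoter: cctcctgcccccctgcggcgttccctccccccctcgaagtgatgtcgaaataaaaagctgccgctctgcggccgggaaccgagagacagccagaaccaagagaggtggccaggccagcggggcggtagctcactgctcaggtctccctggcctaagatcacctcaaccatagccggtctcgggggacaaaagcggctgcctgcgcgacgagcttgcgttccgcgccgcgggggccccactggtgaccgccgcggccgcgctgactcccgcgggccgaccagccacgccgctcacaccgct
Gata2 downstream promoter: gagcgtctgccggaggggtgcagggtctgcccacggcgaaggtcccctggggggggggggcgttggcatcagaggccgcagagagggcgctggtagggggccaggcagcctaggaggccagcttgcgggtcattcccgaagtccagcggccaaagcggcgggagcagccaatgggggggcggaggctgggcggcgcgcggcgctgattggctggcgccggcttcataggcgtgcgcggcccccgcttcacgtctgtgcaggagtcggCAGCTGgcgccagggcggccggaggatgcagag
Neither window held GATAA or GAGGAA, and the downstream window held 1 E-box, at bases 268 to 273. Of 32851 promoter windows of this length, 25.4% held GATAA, 28.3% GAGGAA and 72.3% an E-box. A missing match says only that these letters are not in this window.

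H3K4me1 at Gata2 was less extensive in Utx KO libraries. It covered 58.2 and 71.8 kb of the window in Utx KO, against 99.0 and 119.4 kb in Utx WT, with no overlap of the groups. The log2 difference was -0.75 (SE 0.32, 95% interval -1.38 to -0.12), against a median of -0.19 over all genes, and did not pass (adjusted p = 0.394 by limma, exact permutation p = 0.333, the smallest that 2 against 2 allow). Island values summed to 2797 and 2966 in Utx KO, against 4136 and 6878 in Utx WT. Of 15 regions 3 (20%) were lost, against the background of 10.9%, and 0 gained. They lay outside the gene, at chr6:88158001-88160399, chr6:88233801-88238399 and, within Eefsec, chr6:88291201-88294199. The second had islands of 4599 and 3799 bp in Utx WT and none in Utx KO. The regions ranked highest in Utx WT replicate 1 lay within Eefsec at 65.0 kb, over the gene itself and at -79.6 kb, and all 3 were kept. That over the gene, chr6:88186401-88208799, covered 17198 and 18599 bp in Utx KO, against 21799 and 21199 bp in Utx WT.

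PU.1 peaks at Gata2 numbered 34, 30 and 32 in Utx KO, against 37, 33 and 35 in Utx WT, which overlap. They covered 29.8, 26.2 and 29.2 kb in Utx KO, against 37.2, 32.2 and 33.2 kb in Utx WT, which do not. The log2 difference was -0.27 (SE 0.09, adjusted p = 0.155 by limma, exact permutation p = 0.1, the smallest possible). Scaled to the library total it was -0.25 with an adjusted p of 0.0499 by limma. That scaled fit called 2977 genes, 1532 higher and 1445 lower, against 286 unscaled. Of 42 regions 2 (4.76%) were lost, against 1.16% of all, and 0 gained. The lost regions chr6:88131601-88132599 and chr6:88172801-88173199 had values of 32 to 72 in Utx WT. The region of highest rank, chr6:88105801-88108599 at -86.7 kb, was kept with values of 633, 458 and 573 in Utx KO, against 531, 615 and 596 in Utx WT. Next in rank were regions at 71.6 and 112.8 kb within Eefsec, also kept. The regions within the gene at 9.2 kb and at -76.8 kb were kept as well. Mouse Gata2 is known to have an enhancer inside the gene and another far upstream.

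In ATAC set B the body of Gata2 was open through an 8.2 kb region, chr6:88196002-88204226, that ranked above percentile 99 of Utx WT replicate 1 by width. It covered 8089 and 6105 bp with Smarca4 gRNA in Utx KO, 7547 and 6976 bp with empty vector in Utx KO, 6414 and 7060 bp with Smarca4 gRNA in Utx WT and 6812 and 6604 bp with empty vector in Utx WT. With empty vector both Utx KO values were above both Utx WT values, and in each genotype the Smarca4 gRNA and empty vector libraries overlapped. The distal region chr6:88115968-88117642 at -77.1 kb was likewise kept in all 12 ATAC libraries. Lost regions were 4 of 26 in Utx KO with empty vector, 0 of 26 with Smarca4 gRNA in Utx WT and 3 of 20 with Smarca4 gRNA in Utx KO, shares of 15.4%, 0% and 15% beside backgrounds of 11.3%, 5.97% and 8.45%. None was gained. The 4 lost without Utx lay at -73.5, 71.6, 74.3 and 99.4 kb, all but the first within Eefsec. The 3 lost with Smarca4 gRNA in Utx KO lay at 35.6, 60.3 and 91.7 kb, where peaks were 222 to 394 bp wide with empty vector. Covered length differed by -0.13, -0.18 and -0.12 on the log2 scale in those 3 comparisons, with SE 0.14 and adjusted p of 0.461, 0.719 and 0.594 by limma. Scaled to the library total the first turned to 0.20 and passed (adjusted p = 0.0466 by limma), and the third turned to 0.14 and did not pass (0.233). The scaled fit of the first comparison called 1657 genes, 712 higher and 945 lower.

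In set A the same gene body was narrower with Chd4 gRNA. The region chr6:88196002-88204226 was covered over 1122 and 522 bp with Chd4 gRNA, against 4719 and 2968 bp with empty vector. Over the window ATAC peaks numbered 20 and 11 with Chd4 gRNA, against 25 and 20 with empty vector, and covered 11.3 and 6.51 kb with Chd4 gRNA, against 20.7 and 14.5 kb with empty vector. Covered length fell by 1.0 on the log2 scale (SE 0.34, adjusted p = 0.0335 by limma), in a fit where 2473 of 17928 genes (13.8%) passed, all lower, and the median of all genes was -0.66. Relative to that median the difference was -0.34. With covered length scaled to each library's total, the log2 difference was -0.24 with an adjusted p of 0.313, and 0 of 17928 genes passed. The adjusted p was also above 0.05 with lists of equal length (0.0604), with no filter on low values (0.209), and without empty vector replicate 1 (0.759), empty vector replicate 2 (0.516) or Chd4 gRNA replicate 2 (0.127). Of 22 regions 0 were lost and 10 kept, beside 13.7% lost and 0.0963% gained over all 50873 regions.

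**Figure D3:**
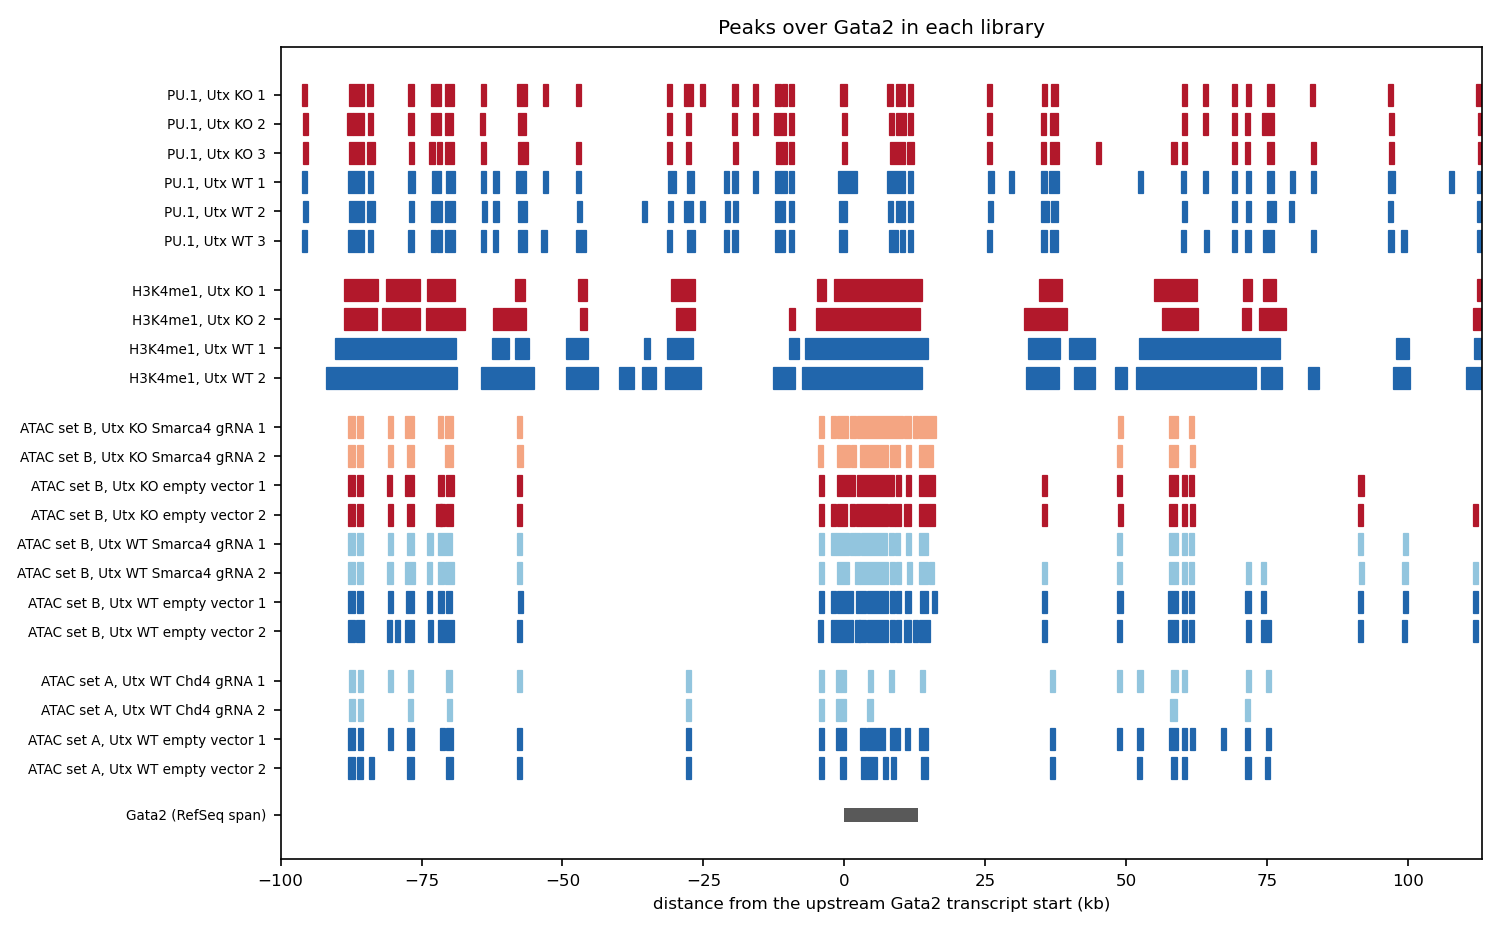
Peaks over Gata2 and 100 kb on each side, by distance in kb from the upstream transcript start, with a row per library and colours as in the map of Zfpm2. Bars are drawn at least 0.9 kb wide. H3K4me1 bars at 42.2 and 98.8 kb are present in the 2 Utx WT rows and absent in the 2 Utx KO rows, and the gene body in set A is shorter in the Chd4 gRNA rows.

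Gata1, the driver of the red cell and platelet programme, lies at chrX:7959260-7976663 among 10 other protein-coding genes in its window. Its promoter window is shown because the open stretch over it was shorter with Smarca4 gRNA. It spans chrX:7967861-7968160 on the minus strand, 250 bases before to 50 after the transcript start, from RefSeq (GRCm38), with capitals for the 3 motifs as above.
Gata1 promoter: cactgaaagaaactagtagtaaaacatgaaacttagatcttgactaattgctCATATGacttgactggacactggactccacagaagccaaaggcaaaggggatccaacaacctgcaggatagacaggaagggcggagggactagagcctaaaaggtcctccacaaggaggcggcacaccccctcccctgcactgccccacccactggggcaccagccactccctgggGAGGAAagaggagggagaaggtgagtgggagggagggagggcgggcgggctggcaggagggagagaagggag
It held 1 GAGGAA, at bases 229 to 234, and 1 E-box, at bases 53 to 58. The ATAC peak over this start was 647 and 615 bp wide with Smarca4 gRNA in Utx KO, against 972 and 1035 bp with empty vector in Utx KO. In Utx WT it was 611 and 637 bp with Smarca4 gRNA, against 858 and 1054 bp with empty vector. The groups did not overlap in either genotype. All 4 empty vector libraries covered the 300 bases whole. With Smarca4 gRNA the peak covered the window from its upstream end and stopped upstream of the start, at -72 and -70 bases in Utx KO and at -48 and -67 in Utx WT, so that the GAGGAA at -22 lay outside it. Of promoters covered whole in both empty vector libraries, 132 of 8884 (1.49%) were not covered whole in either Smarca4 gRNA library in Utx KO, and 159 of 9144 (1.74%) in Utx WT. This contrast was picked out after the values were seen, and the exact permutation test cannot go below 0.333 with 2 against 2 libraries. In set A the peak was 408 and 310 bp wide with Chd4 gRNA, against 484 and 526 bp with empty vector, and ended at -121 and -159 bases with Chd4 gRNA, against -80 and -99 with empty vector.

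Lost ATAC regions at Gata1 numbered 4 of 16 (25%) with Smarca4 gRNA in Utx WT, beside 5.97% of all regions, and 1 was gained, beside 0.865%. One of the lost regions, chrX:7966066-7966589, lay within the gene at 1.6 kb from the start, with peaks of 345 and 263 bp with empty vector. The others lay at 106.4 and 102.4 kb within Otud5 and at -74.8 kb between genes. In Utx KO 1 of 12 was lost with Smarca4 gRNA, that at 102.4 kb. Without Utx 3 of 15 (20%) were lost, at 106.4, -74.8 and -93.5 kb, beside 11.3%, and with Chd4 gRNA 0 of 9. The Utx comparison and the Smarca4 gRNA comparison in Utx WT share their Utx WT empty vector libraries. The losses at 106.4 and -74.8 kb in both are therefore not independent. The 4 lost with Smarca4 gRNA in Utx WT came to 1 with a 50 or 10 kb window and to 0 with lists of equal length or the upper 50% of each list. The 3 lost without Utx came to 0 under each of these. Peak number in set B was 9 and 9 with Smarca4 gRNA in Utx KO, 12 and 10 with empty vector in Utx KO, 12 and 10 with Smarca4 gRNA in Utx WT and 14 and 15 with empty vector in Utx WT. Covered length at Gata1 differed by -0.24, -0.19 and -0.36 on the log2 scale in the Utx KO gRNA, Utx loss and Utx WT gRNA comparisons, with SE 0.13 and adjusted p of 0.326, 0.286 and 0.673 by limma. The medians over all genes were -0.20, -0.29 and -0.12 in those 3 comparisons. Scaled to the library total the first and second turned to 0.0030 and 0.14 and did not pass. Without Smarca4 gRNA replicate 1 the first was -0.35, unscaled.

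PU.1 peaks at Gata1 numbered 30, 20 and 28 in Utx KO, against 18, 18 and 16 in Utx WT, with no overlap in number. They covered 24.1, 14.4 and 23.5 kb in Utx KO, against 15.4, 16.2 and 16.8 kb in Utx WT, where Utx KO replicate 2 lay below all 3. The log2 difference was 0.32 (SE 0.18, adjusted p = 0.358 by limma). Of 33 regions 2 (6.06%) were gained and 0 lost, beside 2.87% and 1.16% of all regions. The first, chrX:7969201-7969599, lay within the RefSeq span, 1.5 kb upstream of the transcript start at 7967910. It had 399 bp and values of 80, 64 and 88 in Utx KO. The second, chrX:8005401-8006199, lay within Glod5. The region of highest rank, chrX:7962801-7967399 in the gene body, was kept with values of 1178, 1029 and 1341 in Utx KO, against 922, 1009 and 1050 in Utx WT. H3K4me1 islands numbered 9 and 10 in Utx KO, against 8 and 14 in Utx WT, and 1 of 15 (6.67%) was gained, within Eras, beside 2.15% of all.

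Gata3, the GATA factor of T cells, lies at chr2:9857078-9887953. Without Utx its ATAC peaks numbered 8 and 9, against 11 and 11 in Utx WT, both with empty vector, and covered 5.04 and 4.55 kb in Utx KO, against 6.5 and 9.12 kb in Utx WT. Covered length fell by 0.66 on the log2 scale (SE 0.21, adjusted p = 0.0499 by limma), beside a median of -0.29 over all genes. That fit called 3474 of 18511 genes (18.8%), 3395 of them lower. The adjusted p was 0.0715 to 0.362 when any 1 of the 4 libraries was left out and 0.133 with covered length scaled to the library total. It was 0.107 with lists of equal length, 0.181 with no filter on low values and 0.0738 with a 50 kb window. Of 12 regions 3 (25%) were lost and 1 (8.33%) gained, beside 11.3% and 1.92% of all regions. Lost were chr2:9872442-9873091 within the gene, with 389 and 529 bp in Utx WT, chr2:9890412-9891350 upstream of it, with 416 and 895 bp, and a distal region at 76.9 kb. The gained region at 72.5 kb had peaks of 215 and 218 bp in Utx KO. These peaks ranked at percentiles 4.92 to 5.55 of their lists by width. This region was the 1 of 8 (12.5%, beside 8.45%) that was lost with Smarca4 gRNA in Utx KO. Both calls rest on the same Utx KO empty vector libraries and are not independent. In Utx WT, 1 of 13 regions (7.69%, beside 5.97%) was lost with Smarca4 gRNA, that at 76.9 kb. Its 2 losses share the Utx WT empty vector libraries.

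With Chd4 gRNA Gata3 lost 2 of 8 regions (25%), both within Taf3 at -91.6 and -95.6 kb, beside 13.7% of all regions. Its peaks covered 2.34 and 1.80 kb with Chd4 gRNA, against 4.36 and 3.45 kb with empty vector (log2 difference -0.85, SE 0.35, adjusted p = 0.0712 by limma). Without Chd4 gRNA replicate 1 it was -1.03. The median over all genes was -0.66 in the fit with all libraries. The merged region spanning the start, chr2:9876577-9880035, was kept in all 12 ATAC libraries, but within it the 300 bases of the promoter window had a peak in 0 of 2 libraries with Chd4 gRNA, against 1 of 2 with empty vector in set A, and in 8 of 8 in set B. The merged region was covered over 961 and 629 bp with Chd4 gRNA, against 1443 and 694 bp with empty vector. PU.1 regions flanked the start on both sides and were kept in all 6 libraries, and 1 of 24 PU.1 regions (4.17%, beside 2.87%) was gained, within Taf3, with islands of 199 bp each. PU.1 covered 19.8, 18.6 and 19.4 kb in Utx KO, against 17.4, 18.6 and 19.6 kb in Utx WT, a log2 difference of 0.06 (SE 0.09, adjusted p = 0.755 by limma). Of 8 H3K4me1 regions 2 (25%, beside 10.9%) were lost, both within Taf3, and the island over the gene was kept with 11598 and 18799 bp in Utx KO, against 17599 and 18398 bp in Utx WT.

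**Figure D4:**
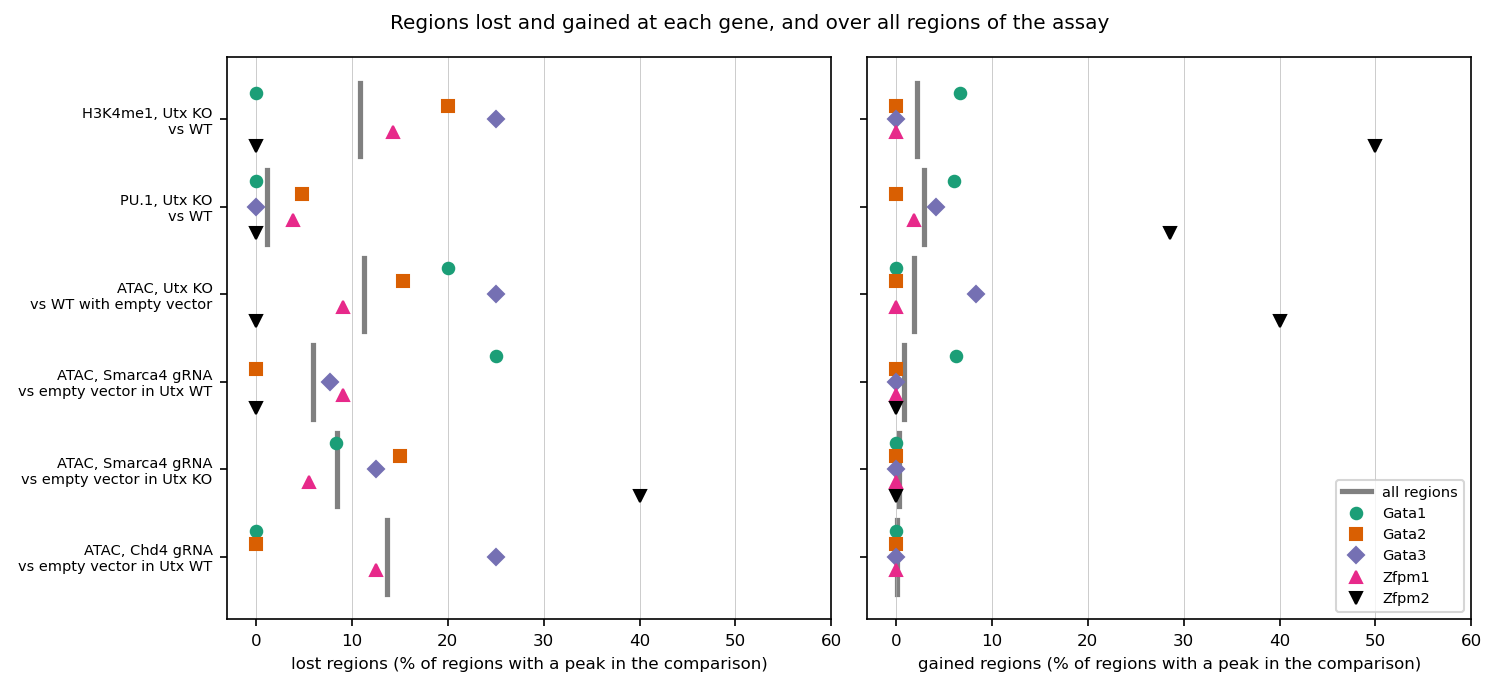
Share of regions lost (left) and gained (right) at each gene, in percent of the regions with a peak in the comparison, for the 6 comparisons. Symbols are the genes and the grey bars are the shares over all regions of the assay. Zfpm2 stands at 50.0%, 28.6% and 40.0% gained in H3K4me1, PU.1 and ATAC in Utx KO, beside 2.15%, 2.87% and 1.92%, from 6, 42 and 5 regions.

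Over the 5 genes together, 7 of 58 H3K4me1 regions (12.1%, beside 10.9% of all), 4 of 193 PU.1 regions (2.07%, beside 1.16%) and 12 of 80 ATAC regions (15%, beside 11.3%) were lost without Utx. Gained were 4 (6.90%, beside 2.15%), 16 (8.29%, beside 2.87%) and 3 (3.75%, beside 1.92%), of which Zfpm2 held 3, 12 and 2. With Smarca4 gRNA, 8 of 63 ATAC regions (12.7%, beside 8.45%) were lost in Utx KO and 7 of 81 (8.64%, beside 5.97%) in Utx WT. With Chd4 gRNA 4 of 55 (7.27%, beside 13.7%) were lost. Across the 22 libraries, centred within each library set, the genes whose covered length was most like that of Zfpm2 were Proser1 (Pearson r = 0.819) and Stoml3 (r = 0.789). For Gata2 they were Npas2 (r = 0.976) and Tgfbr3 (r = 0.975), for Gata1 Smok3c (r = 0.918) and Gpr45 (r = 0.888), for Gata3 Ppp1r36 (r = 0.958) and Rbpms2 (r = 0.956), and for Zfpm1 Cers1 and Gdf1 (r = 0.973 each). Zfpm2 had 0 covered bases in some of these libraries. Libraries of a set share list length, and the values are a description.

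**Figure D5:**
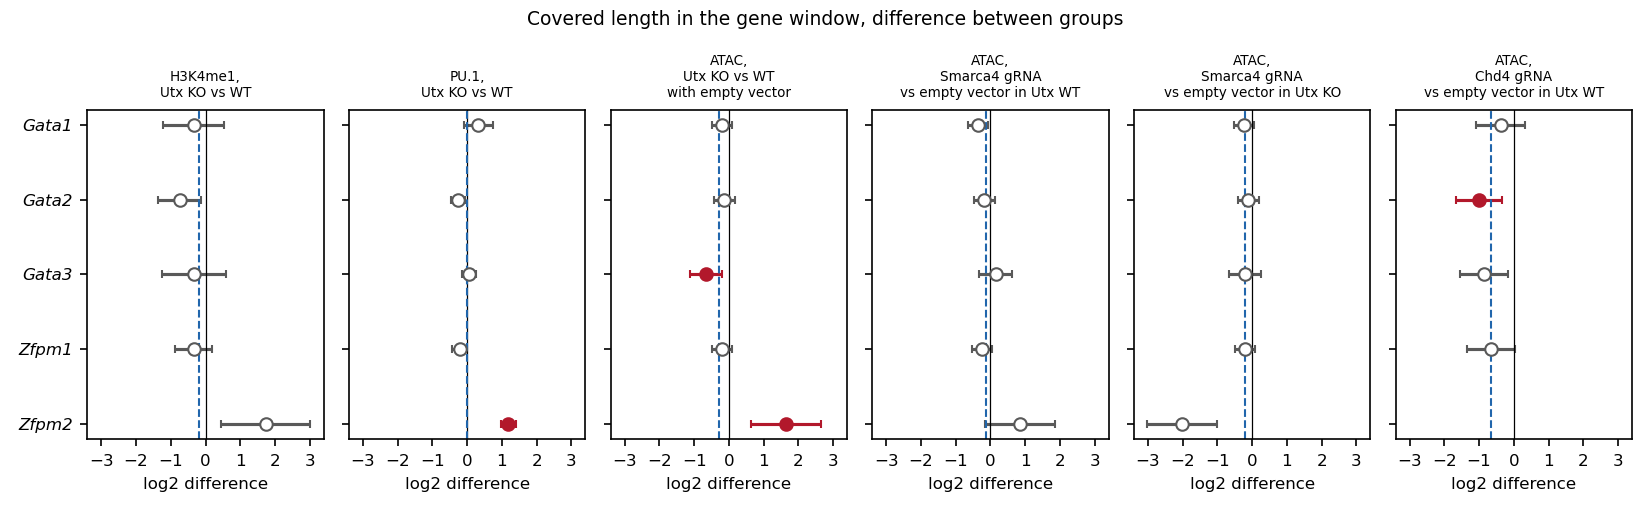
Log2 difference in covered length at each gene in the 6 comparisons, with 95% intervals from limma. Filled red points have an adjusted p under 0.05, open points do not, and the blue dashed line is the median of all genes tested. Zfpm2 has no point for Chd4 gRNA, where it had 0 peaks in the 4 libraries.

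The known partners of these proteins were counted as lists. Of 12 GATA complex partners, 5 had lower ATAC covered length in Utx KO with empty vector and 0 higher, namely Gfi1b (log2 difference -0.62), Cbfa2t3 (-0.59), Lmo4 (-0.54), Tcf12 (-0.51) and Lmo2 (-0.47), with adjusted p of 0.0328 to 0.0489 by limma. Over all genes 18.8% passed, 79 higher and 3395 lower, and the split was 712 higher to 945 lower when scaled to the library total. The median of the list was -0.40, beside -0.29 over all genes. Of 13 NuRD subunits 2 were lower, Mta3 (-0.92) and Gatad2a (-0.46), with a list median of -0.33. Of 15 target genes of GATA factors 3 were lower, Pf4 of platelets (-1.09), Kel of red cells (-0.82) and Hdc of mast cells (-0.57), with a list median of -0.30. With Chd4 gRNA 4 partners (Tal1, Lmo2, Tcf12 and Fli1), 1 NuRD subunit (Mta3), 3 targets (Kel, Ms4a2 and Kit) and Gata6 were lower and 0 genes higher. These were 4 of 12 partners, 1 of 13 subunits, 3 of 14 targets tested and 1 of 3 other GATA genes, beside 13.8% of all genes, and 0 of all genes passed when scaled. Their log2 differences ran from -1.41 to -0.95, and the medians of the 4 lists were -0.74, -0.61, -0.72 and -0.63, beside -0.66 over all genes. In the H3K4me1, PU.1 and Smarca4 gRNA comparisons no gene of the 4 lists passed.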

How the data were processed

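The authors deposited 22 peak lists, from 10 ChIP-seq and 12 ATAC-seq libraries. Bowtie, Bowtie2, SICER and MACS2 are named in the submitters' processing notes, on the build mm10, and versions and settings are not given in the sources used here. Each ChIP list as deposited by the authors gives island coordinates on a 200 bp grid and a whole-number score whose role is not stated, and which was used to describe and rank islands within a list. ATAC lists hold coordinates only, and the 2 input libraries were not analysed here. Read depth is unknown, so list length stands in for it, and no counting interval is given.

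The members and gene lists were chosen with earlier results of these data known. Peaks were merged over all libraries of an assay and joined to RefSeq spans (GRCm38.p6) with 100 kb on both sides. All lost or gained regions, regions within 1 kb of a start and up to 3 regions of highest rank per gene and assay were eligible to be named. Covered length was fitted with limma 3.58.1 (R 4.3.3) on log2(bp + 200), without scaling to the library total, for genes with a mean of at least 200 bp. ATAC set B groups shared a fit, p-values were adjusted over all genes by Benjamini-Hochberg, and 0.05 was the threshold. Sets A and B were fitted separately. Exact permutation tests were two-sided. Python 3.11.15 was used for regions. Both steps were run on simulated data with planted changes, which checks the code and not the error rates at the spread of these libraries. Alternatives were scaling, lists of equal length, other windows, pseudocount, filters, overlap, a replicate block and leaving out each library. Some groups share replicate numbers, and the labels do not say whether these mark a shared animal or culture, so the libraries were not treated as pairs.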

Additional observations from a re-analysis of the deposited data

Results flagged for a closer look

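At Zfpm2 the difference in covered ATAC length between Smarca4 gRNA and empty vector was -2.02 on the log2 scale in Utx KO and 0.86 in Utx WT. Every Utx KO library with the gRNA covered less than every Utx KO library with empty vector, and every Utx WT library with the gRNA covered more than every Utx WT library with empty vector. The difference of these differences, Utx KO minus Utx WT, was -2.88 (SE 0.65). Its unadjusted p in the limma fit was 0.000842 and its adjusted p 0.9998, and 0 of 18511 genes passed this test. The contrast was added after the data were seen, and it rests on 0 to 4 narrow peaks per library. With covered lengths this short, the size of these differences depends on the 200 bp added before taking log2. Across the alternatives the gRNA difference ran from -2.82 to -0.90 in Utx KO and from 0.21 to 1.02 in Utx WT.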

How the results depend on the processing

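Peak lists carry no read depth, so a missing peak cannot be told apart from one under the authors' threshold. With 2 libraries a group the exact permutation p cannot go below 0.333. For single genes, 249 covered-length values kept direction and side of the threshold across alternatives, 23 lost a call, 10 gained one and 18 reversed. The causes were not tested.

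Over the 5 genes, lost H3K4me1 regions were 3 with a 50 kb and 0 with a 10 kb window, and gained ones 2 with 10 kb and 0 in the upper 50% of each list. Lost PU.1 regions were 1 with 10 kb, 1 in the upper 50% and 7 where a library had to cover 50% of the region, and gained ones 10 in the upper 50%. Regions lost in ATAC without Utx were 4 with 50 kb, 4 with 10 kb, 3 in the upper 50% and 5 with lists of equal length, and gained ones 1 with 10 kb and 0 in the upper 50%. With Smarca4 gRNA in Utx WT, 3 were lost with 50 kb, with 10 kb and with equal lists, and 0 gained with these or in the upper 50%. With Smarca4 gRNA in Utx KO, 5 were lost with 50 kb, 2 with 10 kb, 3 in the upper 50% and 2 with equal lists. With Chd4 gRNA, 2 were lost with 50 kb, 10 kb or equal lists and 9 under 50% cover, and 2 gained with equal lists.

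Genes passing the covered-length test, in the order H3K4me1, PU.1 and ATAC without Utx, numbered 1230, 2977 and 1657 when scaled to the library total. The splits of higher against lower were 445 to 785, 1532 to 1445 and 712 to 945, beside 54 to 165, 192 to 94 and 79 to 3395 unscaled. With lists of equal length they numbered 355, 864 and 866, and with no filter 57, 123 and 53. A 50 kb window gave 93 for H3K4me1 and 2089 for ATAC without Utx, and a pseudocount of 1000 bp gave 437 for PU.1. With Smarca4 gRNA in Utx WT, 2 passed with that pseudocount and 29 with no filter. With Smarca4 gRNA in Utx KO, 15 passed when scaled, 28 with no filter, and 0 with equal lists, that pseudocount or 50 kb. With Chd4 gRNA, 0 passed when scaled, 473 with equal lists and 99 with no filter.

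With the replicate block, 0 genes passed for H3K4me1, 28 for PU.1, 62 and 1446 for Smarca4 gRNA in Utx WT and Utx KO, and 14485 for Chd4 gRNA. At Zfpm2 the Smarca4 gRNA difference in Utx KO passed with the block (adjusted p = 0.000799 by limma), as did the Chd4 gRNA differences at Gata3 (0.000243) and Zfpm1 (0.0051). Deviations of same-numbered libraries correlated at 0.133 for H3K4me1, -0.123 to 0.012 for PU.1, -0.0005 for ATAC without Utx, 0.210 and 0.082 for Smarca4 gRNA in Utx WT and Utx KO and 0.170 for Chd4 gRNA, and whether the numbers pair the libraries is not known.

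Reversed log2 differences were as follows. For Gata3 in PU.1 it was -0.025 with equal lists and -0.19 with 50 kb. In ATAC without Utx, scaled values were 0.14 for Gata1, 0.20 for Gata2 (adjusted p = 0.0466 by limma) and 0.14 for Zfpm1, with 0.0081 for Gata1 with equal lists and 0.040 for Gata2 with 50 kb. With Smarca4 gRNA in Utx KO, scaled values were 0.0030 for Gata1, 0.14 for Gata2, 0.033 for Gata3 and 0.048 for Zfpm1. With Chd4 gRNA, scaled values were 0.36 for Gata1 and 0.10 for Zfpm1.

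When 1 library was left out, genes passing numbered 0 to 429 for H3K4me1, 0 to 45 for PU.1, 23 to 457 for ATAC without Utx, 0 to 17 and 0 to 8424 for Smarca4 gRNA in Utx WT and Utx KO, and 22 to 14723 for Chd4 gRNA. Lost regions were 7 to 15 in H3K4me1, 4 to 8 in PU.1, 9 to 13 with Smarca4 gRNA in Utx WT and 4 to 13 with Chd4 gRNA, and gained regions 1 to 5 and 0 to 3 with Smarca4 gRNA in Utx WT and Utx KO. Log2 differences ran from -0.75 to 0.068 for Gata1 and from -0.67 to 0.0043 for Gata3 in H3K4me1. They ran from -0.091 to 0.39 for Gata3 with Smarca4 gRNA in Utx WT, and from -0.29 to 0.054 for Gata2 and -0.55 to 0.13 for Gata3 with it in Utx KO. At Zfpm1 the difference was -0.32 without Smarca4 gRNA replicate 1 in Utx KO and -0.94 without Chd4 gRNA replicate 1. With all libraries these differences were -0.20 (adjusted p = 0.384 by limma) and -0.66 (adjusted p = 0.121 by limma). The medians over all genes were -0.20 and -0.66.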
